A study of Rattus norvegicus with 8 samples.

Results

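The genes described here carry out homologous recombination and the Fanconi anemia pathway of DNA crosslink repair. They were taken as the rows of the deposited count table whose gene symbol equals one of 32 listed names. The rows found were 30 of the 24059 in the table. Rad51d and Rad54b were not matched by symbol and are not analysed here. All 30 passed the filter on low counts that left 16976 genes for testing.

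Transcripts were measured by polyA-enriched RNA sequencing of GFP-positive germ cells sorted from prepubertal rat testes; the rats were transgenic Sprague-Dawley animals with GCS-EGFP, a germ cell reporter. Control rats 1, 4, 5 and 9 received vehicle, and doxorubicin rats 2, 3, 6 and 8 received 5 mg/kg of doxorubicin, in both cases on postnatal day 6 with collection 24 h later. Every rat carried the reporter, each library came from 1 rat, and n = 4 in each group. Doxorubicin is an anthracycline that traps topoisomerase II on DNA, which leaves double-strand breaks. The cells are a sorted population that holds several spermatogonial states, so a change in the proportion of cells and a change in transcript per cell cannot be told apart.

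Homologous recombination repairs a double-strand break by copying an intact sister chromatid. The break ends are trimmed to single strands, BRCA1 with its partners brings BRCA2 to them, a single strand invades the sister, and helicases and nucleases separate the joined molecules. The Fanconi pathway joins this route at stalled forks and crosslinks: a multi-subunit ubiquitin ligase, the core complex, marks the pair FANCI and FANCD2 on chromatin. Dividing cells make most of these proteins in S and G2 phase, and the germline needs many of them later for meiosis.

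Library totals ran from 41253800 to 58871100 estimated counts, and levels are given as CPM (counts-per-million) after TMM scaling, which adjusts the library totals. The summed level of 15 germ cell markers was 3207 to 3293 CPM in controls and 3250 to 3344 CPM after doxorubicin. The markers of Sertoli (12 tested), Leydig (7), peritubular and stromal (9), endothelial (6), macrophage and leukocyte (6) and erythroid cells (5) each summed to between 5.16 and 156.4 CPM in every library, and none of those tested was at 0 throughout. The sums of the 2 groups overlapped for each of these lists except the erythroid one, which was 6.90 to 8.57 CPM in controls and 8.76 to 14.4 CPM after doxorubicin. The direction of that sum came from Slc4a1, the anion exchanger of red cells. Slc4a1 rose with all 3 tools, from 3.09 ± 0.35 to 7.48 ± 2.21 CPM (SD, n = 4 each; edgeR adjusted p = 0.0339). Of the 5 erythroid markers tested, 2 had positive and 3 negative log2 fold changes, the negative ones including Alas2 at -0.55 (edgeR adjusted p = 0.794). Of the globins, Hbb and Hba-a1 were lower with DESeq2 (log2 fold changes of -1.17 and -0.88, adjusted p = 0.0284 and 0.0439) and were not called by edgeR (adjusted p = 0.192 and 0.206); globin genes have near-identical copies, so their counts are uncertain. Of the 9 stromal markers 8 had negative log2 fold changes and 0 were called by any tool. The other, Myh11, had the largest change of that list, 0.79 (edgeR adjusted p = 0.561). At an unadjusted p below 0.05, edgeR gave 1 stromal marker higher and 2 lower (33.3%, against 6.76% of all genes). No other marker was called. The part of these markers in the members' values was not tested.

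No member of the set was called higher or lower after doxorubicin. With edgeR's quasi-likelihood test and Benjamini-Hochberg adjustment over all genes tested, 0 of 30 members passed an adjusted p of 0.05, where 0.112% of all genes did. The smallest adjusted p of a member was 0.706. DESeq2 and limma-voom also called 0 members, where they called 1.02% and 0.141% of all genes. At an unadjusted p below 0.05, edgeR and DESeq2 each gave 1 member, Fanca, lower. The share of members was 3.33% with edgeR, against 6.76% of all genes in either direction (4.19% higher and 2.56% lower). The share of all genes with DESeq2 at this threshold is not given here. In none of the 30 did all treated libraries lie above or below all control libraries, which was so for 4.72% of all genes. The fold changes were small as well: 12 members had a positive and 18 a negative log2 fold change, from -0.12 to 0.13, with a median of -0.015 against -0.0047 over all genes, of which 52.2% were negative.

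The intervals give the size of change that these data leave room for. For 27 of 30 members the 95% interval of the log2 fold change lay wholly inside 0.26 in either direction, which is a 1.2-fold change. Over all genes tested 48% of intervals did so, and the median standard error was 0.052 for the members and 0.090 for all genes. The exceptions were Fancf, with 178 to 289 counts per library and an interval from -0.11 to 0.37, Rad52 (-0.04 to 0.30) and Mus81 (-0.27 to 0.22). Intervals are for single genes and are not adjusted for their number. The plot of fold changes with their intervals shows all 30 by role.

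**Figure D1:**
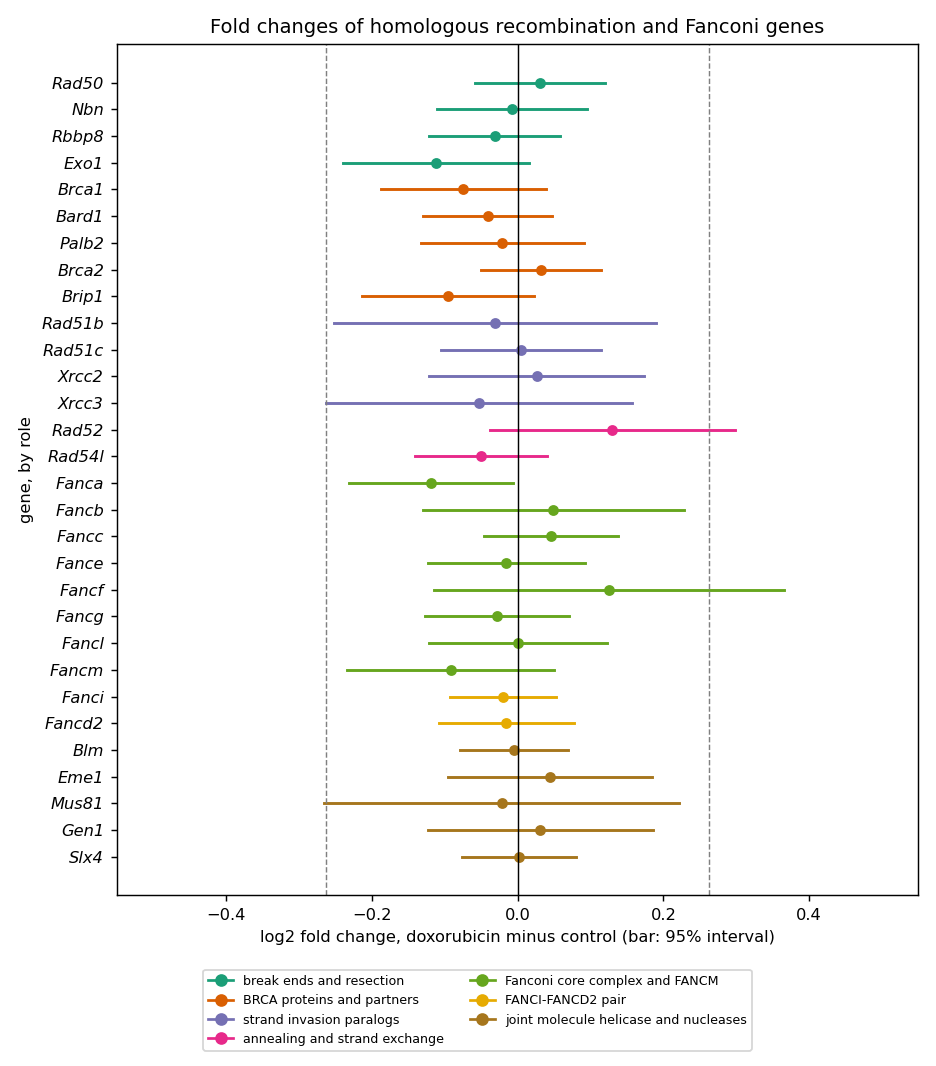
Log2 fold change of each member after doxorubicin (x axis, doxorubicin minus control; points) with its 95% interval from edgeR (bars, n = 4 against 4), ordered and coloured by role (y axis). The dashed lines mark a 1.2-fold change; the intervals of Fancf, Rad52 and Mus81 cross a dashed line, that of Xrcc3 ends just inside one, and that of Fanca ends just below 0.

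Proximal promoter sequences from RefSeq (build GRCr8) were found for 27 of the 30 members; Blm, Nbn and Xrcc2 had no entry. The window ran from 250 bases before to 30 bases after the gene start, and motifs were searched on both strands. An E2F site, the element of S-phase genes, spelled here as TTTCCCGC, TTTCGCGC, TTTGCCGC or TTTGGCGC, was found in 3 of 27 members (11.1%) and in 2.0% of all 33469 promoters in the table. Here and for the motifs below, all promoters were counted, whether or not their gene was among those tested. The shares therefore do not compare the members with expressed genes only. The 3 are shown because they are the members that carry this element, with its letters in capitals.
Bard1, chr9:80143726-80144005, minus strand: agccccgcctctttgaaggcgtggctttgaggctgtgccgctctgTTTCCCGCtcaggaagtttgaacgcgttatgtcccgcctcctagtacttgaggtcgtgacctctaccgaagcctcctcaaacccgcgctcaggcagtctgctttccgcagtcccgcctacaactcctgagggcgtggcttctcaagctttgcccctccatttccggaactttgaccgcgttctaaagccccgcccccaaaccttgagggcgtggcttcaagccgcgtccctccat
Fancc, chr17:1686839-1687118, plus strand: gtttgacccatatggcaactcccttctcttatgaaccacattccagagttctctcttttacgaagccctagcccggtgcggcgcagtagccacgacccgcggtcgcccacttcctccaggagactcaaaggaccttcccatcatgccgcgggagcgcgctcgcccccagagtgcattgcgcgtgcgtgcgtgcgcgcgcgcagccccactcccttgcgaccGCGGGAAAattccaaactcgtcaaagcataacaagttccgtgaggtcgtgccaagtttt
Fancd2, chr4:148234458-148234737, plus strand: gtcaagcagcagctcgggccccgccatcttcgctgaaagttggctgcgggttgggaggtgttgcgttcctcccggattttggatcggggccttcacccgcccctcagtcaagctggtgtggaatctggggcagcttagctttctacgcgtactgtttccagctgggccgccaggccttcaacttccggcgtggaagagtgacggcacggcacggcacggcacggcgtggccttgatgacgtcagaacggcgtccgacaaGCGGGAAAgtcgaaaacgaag
In Bard1 the match begins 205 bases before the start, in Fancc 29 bases before it on the opposite strand, and in Fancd2 at base 10 of the transcript side, also on the opposite strand. The log2 fold changes of these genes were -0.04, 0.05 and -0.02.

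A CCAAT box (CCAAT) was found in 9 of 27 members (33.3%) against 36.2% of all promoters. Brca1 and Fanca are shown for this box, in capitals, since Fanca had the smallest p of the set and Brca1 is its best known gene.
Brca1, chr10:86977552-86977831, minus strand: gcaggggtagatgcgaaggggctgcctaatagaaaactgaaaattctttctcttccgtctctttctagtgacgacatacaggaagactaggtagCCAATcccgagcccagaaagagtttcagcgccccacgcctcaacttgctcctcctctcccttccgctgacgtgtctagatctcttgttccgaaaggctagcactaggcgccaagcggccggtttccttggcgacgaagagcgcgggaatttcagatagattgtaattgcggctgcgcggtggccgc
Fanca, chr19:68270990-68271269, minus strand: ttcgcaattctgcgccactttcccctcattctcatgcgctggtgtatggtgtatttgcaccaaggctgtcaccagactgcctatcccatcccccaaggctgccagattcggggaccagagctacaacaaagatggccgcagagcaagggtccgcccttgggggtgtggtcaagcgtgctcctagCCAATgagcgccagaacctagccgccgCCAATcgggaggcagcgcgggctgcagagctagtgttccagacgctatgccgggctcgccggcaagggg
Fanca holds 2 copies and Brca1 holds 1. Of the other elements searched, the GC box GGGCGG was found in 15 of 27 members (55.6%, against 32.2% of all promoters), the ETS site ACTTCCG in 6 (22.2% against 6.11%), the CHR element TTTGAA in 5 (18.5% against 17.4%) and the CRE TGACGTCA in 2 (7.41% against 1.78%). The p53 half-site was found in 1 member, Rad50 (3.7% against 7.4%). These motifs can overlap each other, and a match is a string of letters only.

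Genes that act first at a break end gave no call. Rad50, a structural ATPase that tethers the ends, stood at 252.8, 236.4, 234.8 and 238.0 CPM in control rats 1, 4, 5 and 9 and at 262.2, 247.5, 234.5 and 238.3 CPM in doxorubicin rats 2, 3, 6 and 8. The groups overlap, with rats 1 and 2 the highest of their groups. Rad50 thus differed by 0.03 on the log2 scale (doxorubicin minus control, 95% interval -0.06 to 0.12). Nbn, the NBS1 subunit that works with RAD50, and Rbbp8, which encodes CtIP, the starter of resection, had log2 fold changes of -0.01 (-0.11 to 0.10) and -0.03 (-0.12 to 0.06).

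Exo1, the exonuclease that extends resection, had the second smallest p of the set. It stood at 89.3, 77.0, 75.7 and 73.3 CPM in control rats 1, 4, 5 and 9, and at 72.5, 76.9, 72.3 and 70.1 CPM in doxorubicin rats 2, 3, 6 and 8. Control rat 1 was the highest of the 8 libraries, and the other 3 controls overlapped the treated rats. Exo1 had a log2 fold change of -0.11 ± 0.06 (SE, edgeR adjusted p = 0.796), and without control rat 1 it was -0.05 (edgeR adjusted p = 0.803).

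Brca1, which encodes the tumor suppressor that promotes resection and recruits PALB2, showed the same arrangement. Its levels were 177.1, 155.7, 151.0 and 148.0 CPM in control rats 1, 4, 5 and 9, and 151.0, 155.4, 147.4 and 146.4 CPM in doxorubicin rats 2, 3, 6 and 8. Apart from control rat 1, all libraries lay between 146.4 and 155.7 CPM. For Brca1 the log2 fold change was -0.07 ± 0.05 (SE, edgeR adjusted p = 0.879), and without control rat 1 it was -0.01 (edgeR adjusted p = 0.940).

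Bard1 encodes the RING partner of BRCA1. In control rats 1, 4, 5 and 9 it stood at 87.7, 81.9, 81.7 and 81.9 CPM, and in doxorubicin rats 2, 3, 6 and 8 at 80.1, 83.1, 83.1 and 77.6 CPM. The difference between group means, 83.3 ± 2.95 against 81.0 ± 2.63 CPM (SD, n = 4 each), is smaller than the spread within either group. Brip1, a helicase that binds BRCA1 and is also known as FANCJ, had a log2 fold change of -0.10 ± 0.05 (SE, edgeR adjusted p = 0.814), again with control rat 1 the highest library at 44.3 CPM against 36.4 to 40.8 CPM in the other 7.

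Brca2, which prepares the single strands for invasion, had its highest value in a treated library. Its levels were 206.8, 194.2, 193.9 and 206.4 CPM in control rats 1, 4, 5 and 9, and 198.5, 200.6, 205.5 and 214.7 CPM in doxorubicin rats 2, 3, 6 and 8. The groups overlap, and the log2 fold change was 0.03 with a 95% interval from -0.05 to 0.11. Palb2, the bridge between BRCA1 and BRCA2, had a log2 fold change of -0.02 (-0.13 to 0.09).

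Control rat 1 held the highest level of 9 of the 30 members, more than any other library (1 to 6 each): Rbbp8, Exo1, Brca1, Bard1, Brip1, Rad51c, Fanca, Fanci and Fancd2. The same library had the highest summed level of the 34 replication and G1/S genes, 5659 CPM against 5122 to 5375 CPM in the other controls and 5115 to 5275 CPM in the treated rats. The part of the replication genes in the level of these members was not tested. Over all members the median deviation of a library from the gene mean was between -0.031 and 0.023 on the log2 scale. The map of levels by library shows that control rat 1 stands out in some rows and not in others.

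**Figure D2:**
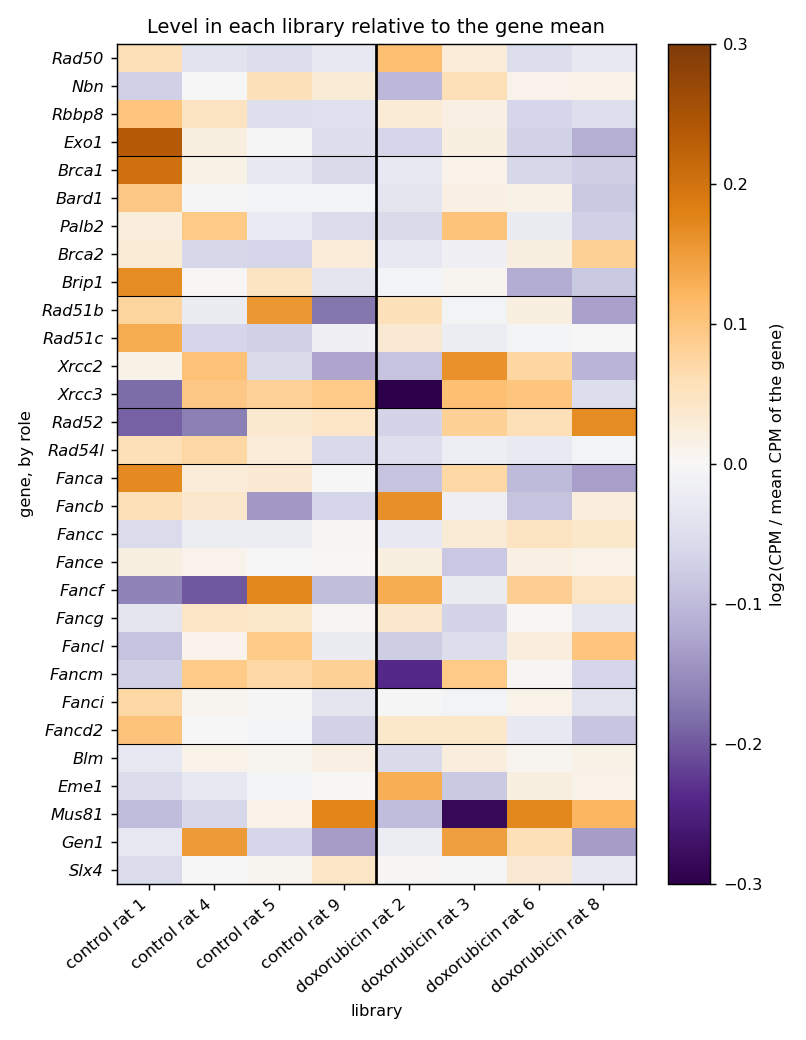
Level of each member (y axis, by role) in each library (x axis), as log2 of its CPM over the mean CPM of the gene; orange is above and purple below the mean, and the vertical line separates control from doxorubicin. Control rat 1 is the highest library for 9 of 30 members, and no row divides cleanly at the vertical line.

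A family of paralogous genes encodes complexes that assist strand invasion. Of these, Rad51b, Rad51c and Xrcc2 had log2 fold changes of -0.03, 0.00 and 0.03, with intervals that all included 0. Rad51b was measured with 200 to 325 counts per library and had an interval from -0.25 to 0.19. Xrcc3, the partner of Rad51c, stood at 16.1, 19.6, 19.4 and 19.5 CPM in control rats 1, 4, 5 and 9 and at 14.9, 19.8, 19.6 and 17.7 CPM in doxorubicin rats 2, 3, 6 and 8. One rat in each group, control rat 1 and doxorubicin rat 2, lay below the other 6. This gave a log2 fold change of -0.05 (-0.26 to 0.16), and 0.03 without doxorubicin rat 2.

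Rad52, a single-strand annealing protein, had the largest positive fold change of the set. It measured 15.4, 15.7, 18.1 and 18.2 CPM in control rats 1, 4, 5 and 9, and 16.8, 18.7, 18.4 and 19.8 CPM in doxorubicin rats 2, 3, 6 and 8. All treated rats but rat 2 lay above all controls. Rad52 had a log2 fold change of 0.13 ± 0.08 (SE, edgeR adjusted p = 0.835), and 0.17 without doxorubicin rat 2 (edgeR adjusted p = 0.880). Rad52 is 1 of 8 members with estimated counts that were not whole numbers, so how its reads were assigned is uncertain. The others are Nbn, Rbbp8, Fancc, Fancg, Fancl, Fanci and Eme1.

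Rad54l encodes RAD54, the motor that drives strand invasion. Its levels were 58.9, 59.5, 57.7 and 54.3 CPM in control rats 1, 4, 5 and 9 and 54.7, 56.0, 55.5 and 56.3 CPM in doxorubicin rats 2, 3, 6 and 8. Control rat 9 lay below every treated rat, and the other 3 controls lay above them. Rad54l had a log2 fold change of -0.05 (-0.14 to 0.04).

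Of the Fanconi core complex and FANCM, 4 genes had positive and 4 negative log2 fold changes, with a median of -0.01. Fanca, a scaffold subunit, stood at 115.2, 104.4, 104.6 and 102.4 CPM in control rats 1, 4, 5 and 9, and at 96.4, 107.6, 95.6 and 93.4 CPM in doxorubicin rats 2, 3, 6 and 8. Doxorubicin rats 2, 6 and 8 lay below every control, and rat 3 lay above 3 of the 4. Fanca had a log2 fold change of -0.12 ± 0.05 (SE, edgeR adjusted p = 0.706), and it ranged from -0.16 without doxorubicin rat 3 to -0.08 without control rat 1. The unadjusted p rose above 0.05 when any 1 of control rats 1, 4 and 5 or doxorubicin rats 2, 6 and 8 was left out.

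Fancm, the helicase that brings the core complex to stalled forks, measured 73.2, 81.9, 80.8 and 81.4 CPM in control rats 1, 4, 5 and 9. In doxorubicin rats 2, 3, 6 and 8 it measured 65.2, 82.0, 77.1 and 73.5 CPM. As with Xrcc3, control rat 1 and doxorubicin rat 2 were the lowest of their groups. Fancm had a log2 fold change of -0.09 ± 0.07 (SE, edgeR adjusted p = 0.885), and -0.03 without doxorubicin rat 2.

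The ubiquitin ligase subunit Fancl and the core subunits Fancb, Fancc, Fance and Fancg had log2 fold changes of 0.00, 0.05, 0.05, -0.02 and -0.03. Fance was steady in the control rats, at 26.9 ± 0.17 CPM, and varied more in the treated rats, at 26.6 ± 0.91 CPM (SD, n = 4 each). Fancf, an adaptor subunit and the least counted member, stood at 4.36 ± 0.53 and 4.76 ± 0.21 CPM.

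Fancd2 and Fanci encode the pair that the core complex ubiquitinates. Fancd2 measured 267.7, 249.0, 248.3 and 237.6 CPM in control rats 1, 4, 5 and 9 and 256.6, 256.4, 244.3 and 234.8 CPM in doxorubicin rats 2, 3, 6 and 8. The groups overlap, with control rat 1 the highest library. The log2 fold change was -0.02 (-0.11 to 0.08) for Fancd2 and -0.02 (-0.09 to 0.05) for Fanci, which had the smallest standard error of all members.

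**Figure D3:**
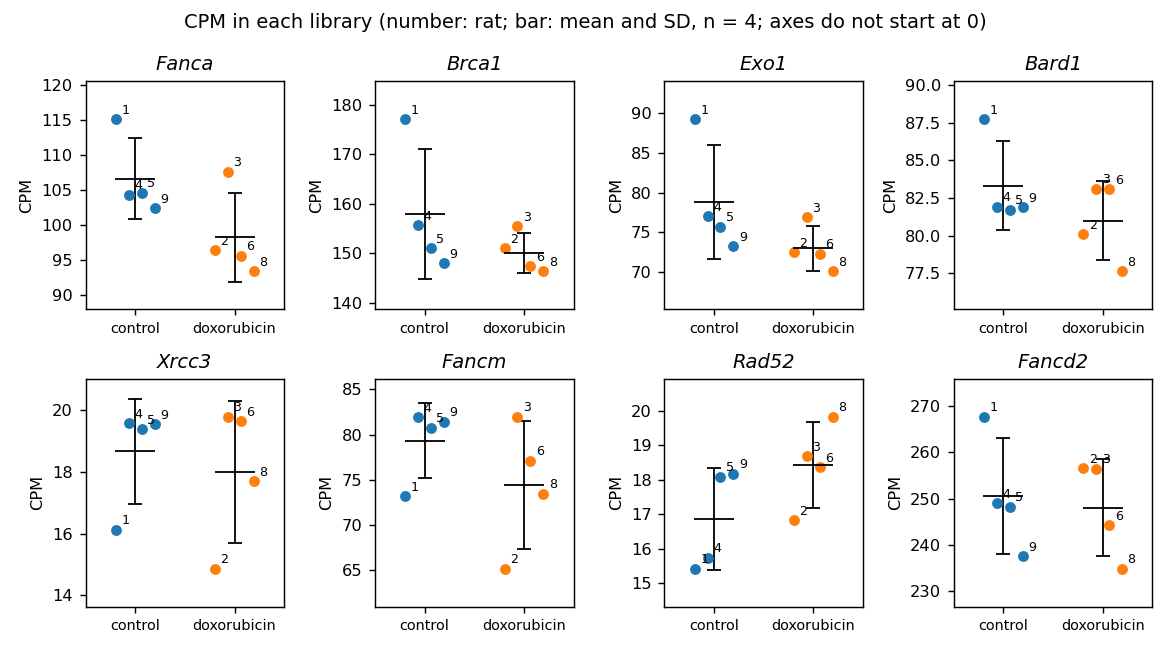
CPM (y axes, which do not start at 0) of 8 members in control and doxorubicin libraries (x axes); points are single rats with their numbers, and the bars give mean and SD (n = 4). Control rat 1 is the highest control for Fanca, Brca1, Exo1, Bard1 and Fancd2 and the lowest for Xrcc3, Fancm and Rad52, and the groups overlap in every panel.

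Genes that take apart joined DNA molecules gave no call either. Blm, the Bloom helicase that dissolves double Holliday junctions, averaged 109.4 ± 1.59 CPM in the control rats and 109.0 ± 2.77 CPM in the treated rats (SD, n = 4 each; log2 fold change -0.01, interval -0.08 to 0.07). Slx4, the scaffold for structure-specific nucleases, had a log2 fold change of 0.00 (-0.08 to 0.08). The nuclease genes Mus81, Eme1 and Gen1 had log2 fold changes of -0.02, 0.04 and 0.03. Gen1, a Holliday junction resolvase, was highest in control rat 4 at 44.5 CPM and doxorubicin rat 3 at 44.4 CPM, against 36.5 to 41.8 CPM in the other 6 libraries. Xrcc2 and Palb2 were also highest in these 2 rats, at 50.9 and 52.9 CPM for Xrcc2 and at 52.7 and 53.1 CPM for Palb2, so this difference lay between rats within each group and not between the groups.

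The rest of the pathway was read from a list of 46 further genes, of which 44 were tested. Of these, 14 had positive and 30 negative log2 fold changes, with a median of -0.015. None passed edgeR, DESeq2 or limma-voom over all genes. At an unadjusted p below 0.05, edgeR gave 1 higher and 2 lower (6.82%, against 6.76% of all genes with edgeR). DESeq2 gave 2 higher and 2 lower, for which its share of all genes is not given here. In 4 of the 44 the groups did not overlap, 2 higher and 2 lower, against 4.72% of all genes. Mre11, the nuclease of the RAD50 complex, had a log2 fold change of 0.04 (-0.07 to 0.14).

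The 4 genes whose groups did not overlap were also the genes of this list with the smallest p. Parpbp encodes PARI, an inhibitor of homologous recombination. It measured 26.5, 27.6, 25.9 and 27.9 CPM in control rats 1, 4, 5 and 9 and 33.3, 29.6, 29.4 and 31.5 CPM in doxorubicin rats 2, 3, 6 and 8, with every treated rat above every control. Its log2 fold change was 0.20 ± 0.06 (SE, edgeR adjusted p = 0.311; DESeq2 adjusted p = 0.0817).

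Dna2, a nuclease and helicase of long-range resection, measured 95.3, 97.6, 93.2 and 91.7 CPM in control rats 1, 4, 5 and 9 and 79.6, 90.2, 85.4 and 86.0 CPM in doxorubicin rats 2, 3, 6 and 8. All treated rats lay below all controls, and the log2 fold change was -0.15 ± 0.04 (SE, edgeR adjusted p = 0.349). Usp1, the protease that removes ubiquitin from FANCD2, had one of -0.11 ± 0.04 (edgeR adjusted p = 0.496), and Spidr, a scaffold that binds BLM, one of 0.09 ± 0.04 (edgeR adjusted p = 0.748). Doxorubicin rat 2 was the most extreme library for all 4.

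Other lists in the same libraries give the scale against which these values can be read. Of 20 p53 target genes tested, 15 had a higher level at an unadjusted p below 0.05 with edgeR (75%, against 4.19% of all genes). At the same threshold 0 had a lower one, against 2.56% of all genes, and the median log2 fold change of the list was 0.91. Over all genes, edgeR called 3 of the 20 targets (Eda2r, Ccng1 and Aen), limma-voom 8 and DESeq2 13, all higher. Doxorubicin rat 2 stood apart on this list: its summed level was 1397 CPM, against 934.7 to 1001 CPM in the other 3 treated rats and 619.7 to 686.4 CPM in the controls. Ccng1, for one, measured 212.1 CPM in that rat and 102.2 to 122.6 CPM in the other 3. Without doxorubicin rat 2 the median was 0.71, 15 genes were higher at an unadjusted p below 0.05, and edgeR called 12.

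Of 24 mitosis and G2/M genes, 21 had a higher level at that threshold (87.5%, against 4.19% of all genes) and 0 a lower one. The median was 0.15. Over all genes edgeR called 1 (Prc1), limma-voom 0 and DESeq2 9, all higher. Without doxorubicin rat 2 the median was 0.13, with 18 genes higher at that threshold. Of the 34 replication and G1/S genes, 1 was higher (2.94%, against 4.19% of all genes) and 7 lower (20.6%, against 2.56%). Their median was -0.06, and 31 were negative. The higher gene, Tyms, was called by DESeq2 and limma-voom and not by edgeR (adjusted p = 0.0589), and no other gene of this list was called by any of the 3. The medians of the members and of the other pathway genes lay nearer 0 than those of these 3 lists; the difference between lists was not tested. The plot of fold changes by gene list shows this spread.

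**Figure D4:**
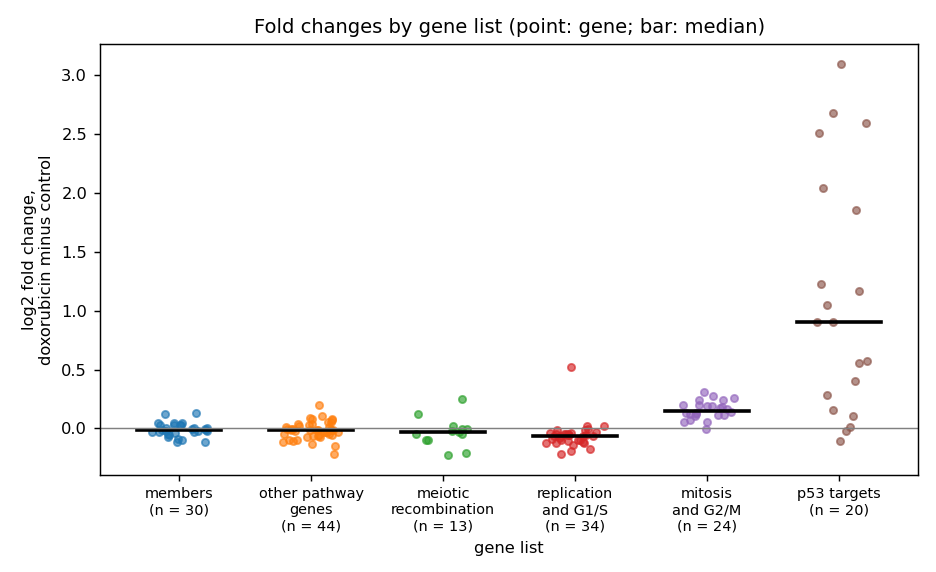
Log2 fold change after doxorubicin (y axis) of the genes in 6 lists (x axis, with the number tested); points are genes and black bars are medians. The members lie between -0.12 and 0.13, and the p53 targets reach 3.10.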

How the data were processed

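Per the labels' protocols, RNA was isolated with a PicoPure kit, and samples of high integrity were made into polyA-enriched libraries. Per the submitters' processing notes, the build was rn6 and the tools were kallisto 0.48.0, featureCounts, DESeq2 1.40.2, Trimmomatic and fastp 0.23.2, with FastQC 0.11.9 and MultiQC 1.12. Which tool did what, and the strand setting, were not given in the sources, so overlapping and antisense genes are uncertain. The deposited values are estimated counts per gene, not normalized, and 32.5% to 33.6% of them per library are not whole (tolerance 1e-06). They were rounded. All library columns were tied to samples by name.

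Tests ran in R 4.3.3 with edgeR 4.0.16 (filterByExpr, TMM, robust glmQLFit, glmQLFTest) on the whole table, with Benjamini-Hochberg adjustment over 16976 genes and a threshold of 0.05. A standard error is the size of the fold change over the root of F, and intervals (95%) use the moderated degrees of freedom. DESeq2 1.42.0 and limma 3.58.1 (voom) were alternatives, beside other scalings and filters, a fit without robust estimation, a term for rat number set and leaving out each library. The procedure was run on simulated data with 1 spread for all genes. That spread was lower than the common one of these data, a coefficient of variation of 8.82%. The run therefore does not test the intervals of genes that vary more. In the smallest library 1 CPM was 41.7 counts. Samples are separate rats.

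The members and lists were chosen with earlier results of these data known. Values in every library were planned for Brca1, Brca2, Fancd2, Rad54l and any member with an unadjusted p below 0.05 or no overlap; the other members, and the libraries singled out, were chosen after their values were seen. A further gene of the pathway list is not reported here. Levels are not compared between genes, since transcript lengths were not used here. The promoter windows (RefSeq, GRCr8) and their motifs, and the 1.2-fold bound for intervals, were also chosen after the fold changes were seen.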

Additional observations from a re-analysis of the deposited data

Results flagged for a closer look

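Among 60 groups of 4 libraries (30 members in 2 groups), 4 had 1 library far from the other 3, where chance gives about 1 in 20, or 3. In control rat 1, Bard1 stood at 87.7 CPM against 81.7 to 81.9 CPM in the other controls. Xrcc3 in the same library was at 16.1 CPM, against 19.4 to 19.6 CPM, and Fancm at 73.2 CPM, against 80.8 to 81.9 CPM. In doxorubicin rat 3, Fance was at 25.2 CPM, against 27.0 to 27.1 CPM in the other treated rats. No fold change of these 4 genes was called with or without these libraries.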

How the results depend on the processing

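No member and none of the other pathway genes was called in any of the 16 alternatives (8 with all libraries and 8 without 1 library), and the smallest adjusted p of a member in any of them was 0.362, for Fanca without doxorubicin rat 3. The median log2 fold change of the members stayed between -0.023 and -0.0039. All 480 member values under an alternative moved by less than the spread between rats. Leaving out 1 library, as in 8 of the alternatives, can hardly move a value further than that. This count is therefore no measure of robustness. Of the 480 values, 37, from 16 members with a fold change of at most 0.05 in size, changed sign. The number of members at an unadjusted p below 0.05, 1 with all libraries, was 0 with a filter of mean CPM of at least 1 and 2 (Fanca and Exo1) with the rat number set (1 to 4 or 5 to 9) as a term. Leaving out 1 library gave 0 to 2: 0 when control rat 1, control rat 4, control rat 5, doxorubicin rat 6 or doxorubicin rat 8 was dropped, 2 without control rat 9 or doxorubicin rat 3, and 1 without doxorubicin rat 2, which was Rad52, higher. The number of members without overlap between the groups, 0 with all libraries, was 0 to 3 in these fits, with 3 (Exo1, Fanca and Eme1) without doxorubicin rat 3, 2 (Rad52 and Fancc) without doxorubicin rat 2, and 1 each without control rat 5 (Fancf) and control rat 9 (Rad54l). The shares of all genes in these fits, at an unadjusted p below 0.05 or without overlap, are not given here. Groups separate more readily with 1 library fewer, so these counts and gene names are not read as results. Of the 3 lists set beside the members, a comparison added after seeing the data, the p53 targets kept medians of 0.71 to 0.99 and the mitosis and G2/M genes 0.13 to 0.17 in all 16 alternatives, but edgeR calls moved: leaving out 1 library gave 1 to 12 p53 targets called (12 without doxorubicin rat 2, and 1 without any 1 control or without doxorubicin rat 8), and 12 passed without robust estimation. Of the mitosis and G2/M genes 0 to 3 were called without 1 library: 3 when control rat 1 was dropped, 1 for doxorubicin rat 2 or 3, and 0 for each of the other libraries. The median of the replication and G1/S genes ran from -0.085 without control rat 9 to -0.040 without control rat 1. At an unadjusted p below 0.05 with edgeR, 4 of them were lower without control rat 1 and 12 with the rat number set as a term. No paired analysis was possible because the groups share no rat number. The members with the fewest counts, Fancf, Rad51b and Mus81, had the largest standard errors of the set. The part of depth in this was not tested.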

Other observations

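Transcripts of meiotic recombination genes, which the germline uses later to pair and exchange chromosomes, were detected in these libraries. All 13 listed were tested, 3 with positive and 10 with negative log2 fold changes and a median of -0.03. None was called by edgeR or DESeq2, and 0 were at an unadjusted p below 0.05 with either. Dmc1, a meiosis-specific recombinase, averaged 24.4 ± 5.58 CPM in the control rats and 20.9 ± 2.64 CPM in the treated rats (SD, n = 4 each). Its log2 fold change was -0.23, with a wide interval from -0.58 to 0.13. Tex15, a germ cell gene needed for meiotic recombination, was at 1057 ± 59.3 and 1025 ± 62.3 CPM. Brme1, a partner of BRCA2 in meiosis, was at 63.5 ± 1.28 and 63.2 ± 1.24 CPM. Spo11, which makes the meiotic breaks, was near 1 CPM, at 0.966 ± 0.127 in controls and 0.836 ± 0.213 CPM after doxorubicin. Spata22, Msh4 and Meiob had control means of 0.516, 2.27 and 4.19 CPM. Markers of other cell types were also detected in these libraries, and which cells gave the meiotic transcripts was not tested. Dmc1, Tex15, Brme1, Spo11, Spata22, Msh4 and Meiob were picked once the values were known.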
